A study of Mus musculus with 5 samples.

Results

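The cytosolic ribosomal protein genes encode the protein part of the ribosome that translates nuclear mRNA. They were picked by symbol alone (Rpl or Rps with a number and at most a short suffix, Rplp0 to Rplp2, and Rpsa), which gave 88 of the 46078 genes in the tables of the 5 libraries. Of the 88, 77 are core ribosomal protein genes, 46 of the large and 31 of the small subunit. The other 11 are paralogs or copies of a core gene. The libraries were made from cells labelled as neural stem and precursor cells and taken from the subventricular zone, the wall of the lateral ventricle that holds neural stem cells in adult mice. The animals were labelled as female C57BL/6 mice (C57BL/6j in the study's methods) 5 to 8 weeks old, whereas the methods give an older age in months, and cells were kept on poly-D-lysine-coated plates. All 5 libraries were sham controls that received PBS, 2 taken after 1 h (replicates 1 and 2) and 3 after 8 h (replicates 13, 14 and 15). The only contrast in the treatment labels is therefore the time after PBS, and there is no untreated group. The 1 h and 8 h libraries also differ in identifier series and in sex-linked genes, as given below. Per the methods of the study, a biological replicate of these cells is an animal.

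A ribosome holds most core proteins about once, so the genes are expressed together at high levels in growing cells. Their mRNAs usually begin with a C and a run of pyrimidines, the 5′ terminal oligopyrimidine (TOP) tract. Through it, the kinase mTOR and the RNA-binding protein LARP1 set how actively and how long these mRNAs are used. In the adult forebrain, a rise in protein synthesis accompanies the exit of neural stem cells from quiescence.

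Start site sequences from RefSeq (build GRCm38.p6, positions 1-based) were found for 63 of the 88 genes, among them 57 core genes. A start was counted as TOP-like where a C was followed by at least 4 further C or T on the transcribed strand. Of the 67 listed starts of core genes, 13 (19.4%) were TOP-like at the exact base, against 2.51% of all 32851 starts in the table. With the start allowed to move by up to 5 bases either way, the shares were 43.3% (29 starts) and 18.3%. The windows that follow each hold 30 bases across the start of exon 1, of which the first 15 lie before the listed start, and capitals mark the tract. The first 5 belong to the genes with the lowest p-values between 8 h and 1 h, the others to genes with clear tracts, low levels or a long coding sequence.
Rplp2, chr7:141447636-141447665, plus strand: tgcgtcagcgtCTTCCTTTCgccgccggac
Rps21, chr2:180257364-180257393, plus strand: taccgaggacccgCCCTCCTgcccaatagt
Rpl27a, chr7:109519180-109519209, plus strand: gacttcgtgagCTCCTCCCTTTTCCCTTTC
Rpl36a, chrX:134585639-134585668, plus strand: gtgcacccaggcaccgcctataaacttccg
Rpl41, chr10:128549154-128549183, minus strand: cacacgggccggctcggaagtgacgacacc
Rps6, chr4:86857353-86857382, minus strand: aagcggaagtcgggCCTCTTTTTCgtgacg
Rps18, chr17:33955651-33955680, minus strand: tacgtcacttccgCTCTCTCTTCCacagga
Rpl38, chr11:114668565-114668594, plus strand: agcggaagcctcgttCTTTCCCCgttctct
Rps15a, chr7:118116133-118116162, minus strand: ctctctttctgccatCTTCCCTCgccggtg
Rpl4, chr9:64173372-64173401, plus strand: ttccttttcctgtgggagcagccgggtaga
In Rpl27a the tract runs past the end of the window. No tract of that length lay within 5 bases of the listed start of Rpl36a, Rpl41 or Rpl4, which says only that these letters are not at that place.

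Before any comparison, 2 libraries stood apart. The 8 h replicates 13 and 15 had Xist, the RNA of the inactive X chromosome, at 165 and 199.7 TPM and the sum of 4 Y-linked genes at 0.0253 and 0 TPM. In the other 3 libraries Xist was at most 0.0611 TPM and the Y-linked genes summed to between 138 and 181 TPM, although every animal is labelled female. The same 2 libraries carry identifiers of series 2, the others of series 1, and the sources used here do not say what the 2 series mean. Their mitochondrially encoded genes made up 6.23% and 6.30% of TPM, against 10.7% to 11.1% in the other 3. The 6 proliferation genes (Mki67, Top2a, Ccnb1, Cdk1, Pcna and Mcm2) summed to 1258 and 1340 TPM there, against 655 to 719. All 9 neural stem and precursor markers were expressed, summing to between 11750 and 15174 TPM, while the 5 microglial markers summed to at most 1.47 TPM with Aif1 and Tmem119 listed at 0, the 4 endothelial markers to between 11.8 and 15.4 TPM with Cldn5 listed at 0, and the 3 ependymal markers to at most 27.3 TPM with Tmem212 listed at 0. The 4 neuronal markers summed to 61.8 and 62.6 TPM at 1 h and to 37.5, 57.8 and 38.5 TPM at 8 h, lowest in the 2 libraries that stood apart. The part of these differences in the results below was not tested, and in bulk RNA fewer cells of a type and less RNA per cell cannot be told apart. Between 13681 and 13967 genes per library reached 1 TPM.

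The core genes were among the most abundant transcripts of the cells. Levels are given as TPM, a library's transcript share after scaling by length. Ranked by mean TPM, 39 of the top 100 genes were core ribosomal protein genes, and 74 of the 77 lay within the top 500. Mean TPM ran from 194 to 2927 with a median of 1122, and 69 of the 77 genes lay within 2-fold of that median. Small subunit genes had a median of 1388 TPM and large subunit genes of 972 TPM.

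Rplp1, a protein of the flexible stalk that recruits elongation factors, had the highest level, with 3054 and 3426 TPM at 1 h and 2777, 2824 and 2556 TPM at 8 h. Its stalk partner Rplp0, which anchors the stalk to the large subunit, was at 2226 ± 245 TPM (SD, n = 5). The remaining stalk protein, Rplp2, was at 672 ± 86.1 TPM (SD, n = 5). Its level in counts per kilobase, given below, depended on the length used for scaling, while its TPM was not recomputed. The other members of the top 8 were Rps4x at 2471 ± 153, Rps12 at 2252 ± 246, Rpl23a at 2184 ± 125, Rps2 at 2041 ± 132, Rpsa at 1928 ± 90.7 and Rps3a1 at 1922 ± 71.4 TPM (SD, n = 5). Each gene differed from its neighbour in this order by less than the sum of their SDs. Rpsa, also known as a laminin receptor, and Rps4x, encoded on the X chromosome, varied little between libraries for their level. Rps4x was at 2327 and 2345 TPM in the 2 libraries with Xist and at 2414 to 2662 TPM in the others.

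**Figure D1:**
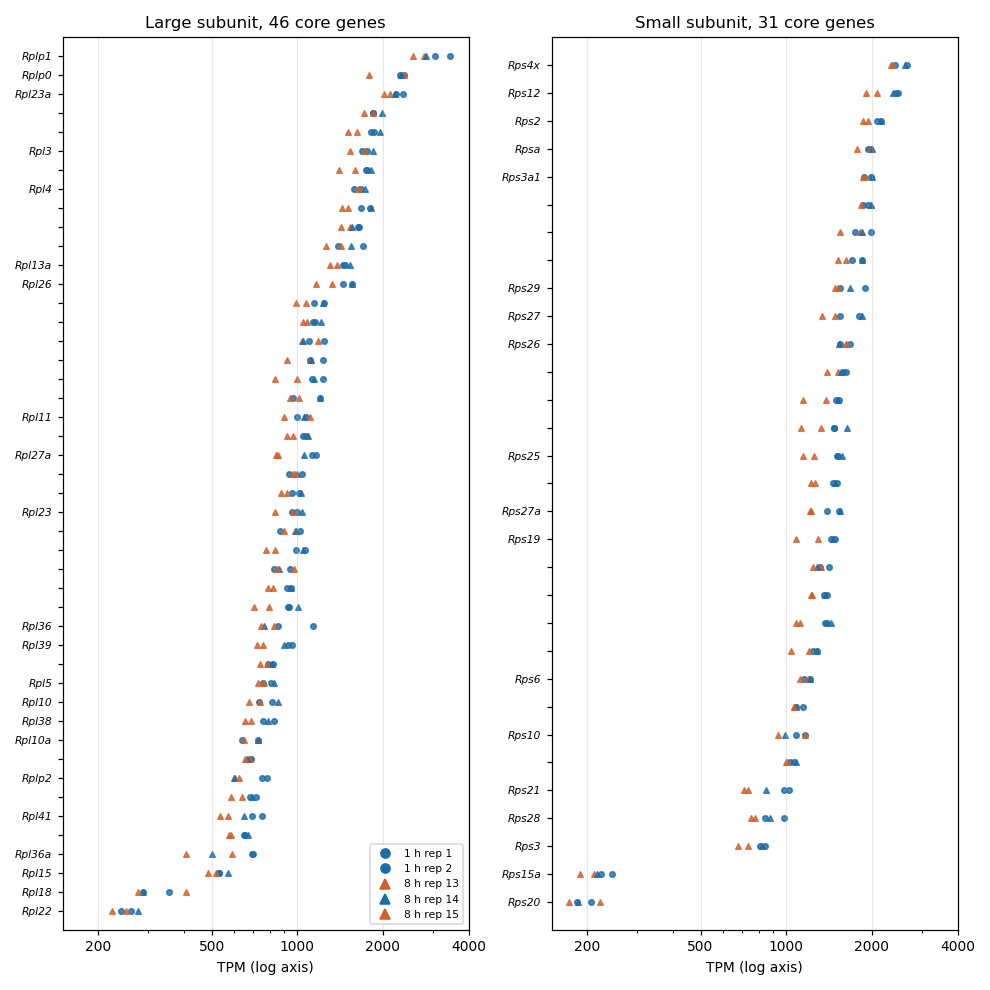
TPM (log axis) of the 77 core genes in each library, ordered by mean within each subunit, with the names of the genes chosen by rule. Circles are 1 h and triangles 8 h, blue is identifier series 1 and orange series 2. Most genes lie within 2-fold of the median of 1122 TPM, and the orange triangles often mark the lowest values.

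The lowest core genes were Rps20 at 194 ± 19.4, Rps15a at 217 ± 20.2, Rpl22 at 249.8 ± 19.6, Rpl18 at 323 ± 56.2 and Rpl15 at 527 ± 30.3 TPM (SD, n = 5). Rps20 and Rps15a are small subunit proteins, and Rpl22 is a non-essential large subunit protein that also binds other RNAs. The first 4 differed from their neighbour in this order by less than the sum of their SDs, while Rpl15 lay above Rpl18 by more than that. In counts per kilobase, the low levels of Rps15a and Rpl22 depended on the length used for scaling. The TPM values were not recomputed with another length, so its part in them was not tested. Rpl18 is not in the count table and was not rescaled. The annotation gives Rps15a 6270 bp of exon but a coding transcript of 640 bp, 10.2% of it, and Rpl22 2911 bp against 474 bp (16.3%), while for Rplp1 both lengths are 499 bp. For Rplp2 they are 2072 and 421 bp (20.3%). The count table, which lists 31 core genes, gave Rps15a 111.5 CPM per kilobase (CPM, counts scaled to the table's total) when divided by all exons and 1093 when divided by the coding transcript. For Rpl22 the corresponding values were 146 and 899 CPM per kilobase, for Rplp2 219 and 1080, and for Rplp1 2179 in both. Rps15a thus moved from rank 31 of 31 to rank 15, Rpl22 from 29 to 19 and Rplp2 from 26 to 16, whereas Rps20 was at 127 and 140.3 CPM per kilobase and took rank 30 and 31. Rpl15 took rank 24 and 20. The coding transcript taken for Rps20 is itself 3706 bp long. Over these 31 genes the SD of log2 levels was 0.95 for TPM, 1.02 per kilobase of all exons and 0.73 per kilobase of the coding transcript. The coding transcript length was added after the values were seen.

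**Figure D2:**
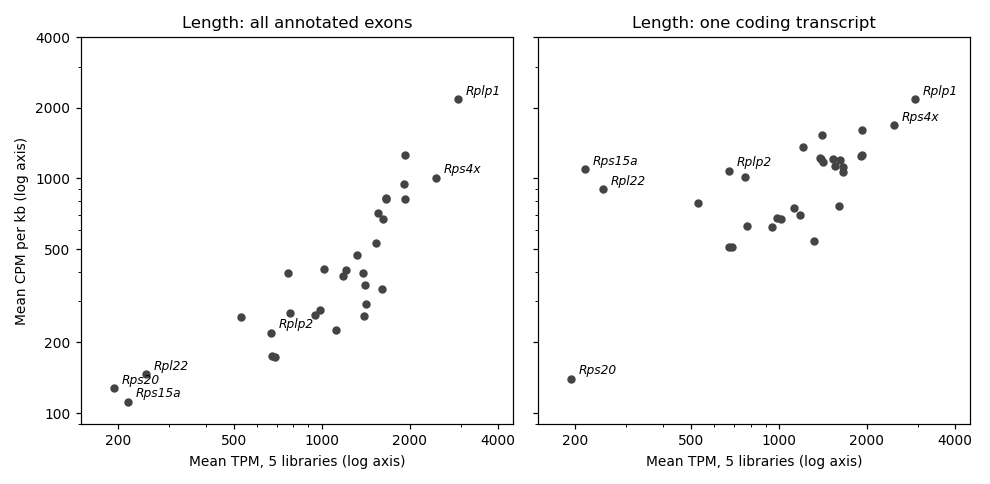
Mean CPM per kilobase of 31 core genes against mean TPM (both axes log), with counts divided by all annotated exons (left) or by the transcript with the longest coding sequence (right). Rps15a, Rpl22 and Rplp2 lie among the other genes on the right, and Rplp1 stays at 2179 CPM per kilobase.

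The 11 paralogs and copies covered a much wider range. Rpl22l1, the paralog that can take the place of Rpl22 in the ribosome, was at 521 and 520.1 TPM at 1 h, against 437, 545 and 475 TPM at 8 h. That is 2.00 ± 0.10 times Rpl22 (SD, n = 5), between 1.90 and 2.17 in single libraries. The ratio is in TPM and may depend on the length taken for Rpl22, which was not tested. Rps27l, a paralog induced by p53, reached 751 ± 77.8 TPM (SD, n = 5) and lay between 42.4% and 54.1% of Rps27. Rpl7l1 was at 128 ± 9.30 TPM, 8.85% ± 1.12 of Rpl7, and was the only tested member with every 8 h library (138, 133 and 129 TPM) above both 1 h libraries (129 and 113 TPM), by under 1 TPM for the closest pair. The annotation classes Rps3a2 as a processed pseudogene, and its 172 ± 9.83 TPM (SD, n = 5) amounted to 8.97% ± 0.35 of Rps3a1. Rps12l1, at 23.0 TPM, Rps3a3, at 3.97 TPM, and Rps12l2, at 3.04 TPM, are also processed pseudogenes, and Rps4l, at 16.3 TPM, is a transcribed one. Near-identical copies can share reads with their parents, so the levels of copies are uncertain, and Rps3a3 lies within Pde4d on the same strand, which was at 17.8 TPM. Rpl10l, a germ cell paralog of Rpl10, and Rpl39l were listed at 0 in all 5 libraries, while Rpl3l, the striated muscle paralog of Rpl3, was listed at 0.124 TPM in 1 h replicate 2 and at 0 in the other 4. A further 260 rows named as ribosomal protein pseudogenes summed to between 0.317% and 0.359% of TPM, led by Rps6-ps4 at 365 ± 19.2 TPM (SD, n = 5).

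Together the 88 genes made up 9.98% and 10.06% of all TPM at 1 h and 9.12%, 10.04% and 8.66% at 8 h (replicates 13, 14 and 15). The 8 h replicate 14 lay between the 1 h libraries, and both libraries of series 2 lay below them. The group means were 10.02% ± 0.05 (SD, n = 2) at 1 h and 9.28% ± 0.70 (SD, n = 3) at 8 h. With the mitochondrially encoded genes left out of the total, the shares were 11.2% and 11.3% at 1 h and 9.73%, 11.2% and 9.25% at 8 h. The large subunit share was 5.33% and 5.36% at 1 h and 4.86%, 5.34% and 4.62% at 8 h, and the small subunit share followed it with 4.48% and 4.53% against 4.11%, 4.53% and 3.90%. Within series 1 alone the total differed by 0.02 percentage points between 8 h and 1 h. Of the 77 core genes, 46 (59.7%) were lower in both libraries of series 2 than in each of the other 3, against 13.5% of the 13870 genes tested. The lowest value of a core gene came from 8 h replicate 15 in 52 genes and from replicate 13 in 18. In 8 h replicate 14, 31 core genes (40.3%) were above both 1 h libraries, 27 (35.1%) between them and 19 (24.7%) below both. No shares over all genes were set beside these counts or those of the lowest value.

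The comparison of 8 h with 1 h asks whether ribosomal protein mRNA shifts with time after PBS. No ribosomal protein gene passed. Of the 88 genes, 85 averaged 1 TPM or more and were tested with limma on log2(TPM + 1). A call needed a log2 fold change beyond 1 in either direction and an adjusted p no higher than 0.05. By this rule 0 of the 85 were called, where 0.0433% of all genes were (6 of 13870), and dropping the fold threshold still gave 0. At an unadjusted p under 0.05, 5 genes (5.88%) were lower at 8 h against 2.82% of all genes, and 0 were higher against 9.52%. The median log2 fold change of the 85 genes was -0.11, against 0.10 over all genes tested, and 75 of them had a value below 0 against 4732 of all 13870. After scaling by the median ratio of genes between libraries, the all-gene median was -0.00 and the members' median -0.22, so the distance between members and all genes was about the same. With the identifier series as a term, the time effect rests on 8 h replicate 14 alone against the 1 h libraries, and the spread comes from the 1 h pair and the series 2 pair, so the lone library is assumed to vary like those. In that fit the members' median was 0.02 against 0.01 over all genes, and 51 of the 85 were above 0, against 7311 of all 13870. All 8 h values lay below both 1 h values in 15 of the 85 genes (17.6%), against 9.43% of all genes, and above both in 1 (1.18%), against 23.7%.

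Rplp2, the stalk protein that pairs with Rplp1, had the lowest p-value. It was at 751 and 780.2 TPM at 1 h and at 606, 599.8 and 626 TPM at 8 h. In TPM the groups did not overlap, and all 3 libraries at 8 h, of either series, lay close together. Its log2 fold change was -0.33 ± 0.09 (SE), with an adjusted p from limma of 0.312, and -0.35 ± 0.09 (SE) when the series was added to the fit. In the count table, with edgeR's quasi-likelihood test, it was -0.27 ± 0.14 (SE, adjusted p = 0.966). There the groups overlapped, with 488.3 and 512.0 CPM at 1 h and 397.9, 499.6 and 375.0 CPM in the 8 h columns.

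Rps21, a small subunit protein, was at 984 and 1019.8 TPM at 1 h and at 736, 851 and 710.4 TPM at 8 h. The groups did not overlap, and replicate 14 was the highest of the 8 h libraries. Its log2 fold change was -0.39 ± 0.11 (SE), with an adjusted p from limma of 0.337, and -0.23 with the series as a term. In that fit, which holds 1 library at 8 h in series 1, Rplp2 and Rps21 had an unadjusted p under 0.05 (2 of 85, 2.35%, against 4.08% of all genes that were lower).

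Rpl36a, encoded on the X chromosome, had the largest difference, its TPM being 695 and 696 at 1 h but 406, 502 and 589 at 8 h. The 1 h libraries were nearly equal and the 8 h libraries spread widely. The log2 fold change was -0.49 ± 0.17 (SE), with an adjusted p from limma of 0.369, and -0.47 with the series as a term. Rpl41, with the shortest annotated coding sequence of the group (138 bp), was at 694 and 751 TPM at 1 h and at 572, 647 and 535 TPM at 8 h. Its log2 fold change was -0.31 ± 0.12 (SE), with an adjusted p from limma of 0.39, and -0.16 with the series as a term. Rpl27a stood at 1127 and 1163 TPM at 1 h and at 840.1, 1059.8 and 854 TPM at 8 h, and replicate 14 lay nearest to the 1 h libraries. The log2 fold change, -0.33 ± 0.13 (SE) with an adjusted p from limma of 0.403, was -0.11 with the series as a term. Rpl36 measured 854 and 1134 TPM in the 1 h libraries and 826, 766 and 746 TPM in the 8 h libraries, so that 1 h replicate 1 lay close to the 8 h libraries and replicate 2 far above them. Its log2 fold change was -0.34 ± 0.14 (SE), with an adjusted p from limma of 0.408, and was -0.13 without 1 h replicate 2 and -0.54 without 1 h replicate 1.

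**Figure D3:**
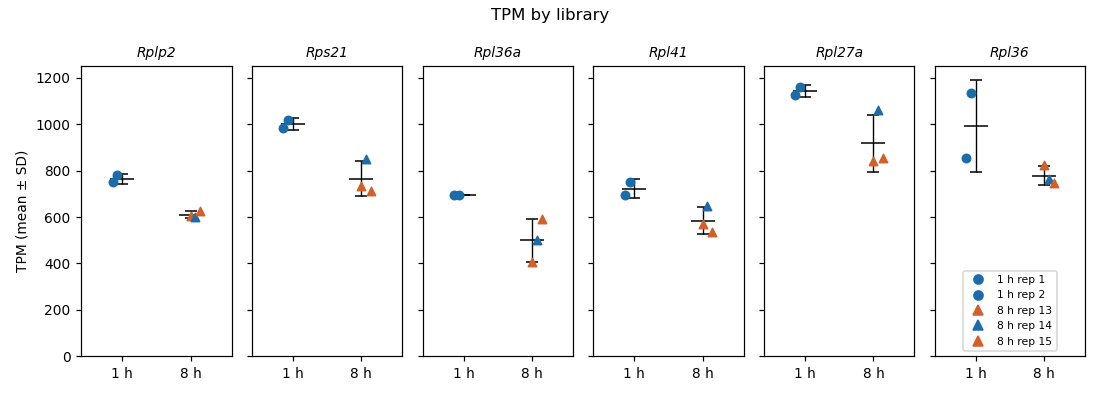
TPM in each library of the 5 genes with an unadjusted p under 0.05 and of Rpl36, with mean and SD per group (circles 1 h, triangles 8 h, blue series 1, orange series 2). Every 8 h value lies below both 1 h values, and Rplp2 keeps the same gap in replicate 14 (599.8 TPM) as in the series 2 libraries. In Rpl36a and Rpl36, replicate 14 lies between the series 2 libraries.

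Among genes that averaged 10 TPM or more, the highest fold changes belonged to copies and to long proteins. They were 0.22 ± 0.41 for Rps4l, 0.14 ± 0.12 for Rps12l1, 0.14 ± 0.10 for Rpl7l1, 0.04 ± 0.10 for Rpl4 and 0.04 ± 0.11 for Rpl10a (log2, SE), with adjusted p between 0.518 and 0.883 (limma). After median-ratio scaling, or without the mitochondrially encoded genes, the values of Rpl4 and Rpl10a were below 0. All 77 core genes had a value below 0 after median-ratio scaling, against 7052 of all 13870 genes.

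The following genes were chosen for known further roles, and all but Rpl39 had overlapping groups. Rpl5 and Rpl11, which with ribosomal RNA bind Mdm2 and so stabilise p53, had log2 fold changes of -0.02 ± 0.10 and -0.03 ± 0.12 (SE). Rpl5 was at 810.5 and 759.6 TPM at 1 h and at 727, 826 and 765 TPM at 8 h, and Rpl11 at 1071 and 999 against 897, 1052 and 1104 TPM. Rps6, the classic substrate of the S6 kinases, was at 1216 and 1158 TPM at 1 h and 1197, 1209 and 1121 TPM at 8 h, with a log2 fold change of -0.01 ± 0.10 (SE). Rpl3, at the peptidyl transferase centre, had -0.02 ± 0.12, Rpl10, which joins late in subunit maturation, -0.04 ± 0.13, and Rpl13a, also part of a complex that silences inflammatory mRNAs, -0.06 ± 0.11 (log2, SE). Rps19, the gene most often mutated in Diamond-Blackfan anaemia, was at 1431 and 1484 TPM at 1 h and at 1295, 1462 and 1087 TPM at 8 h. Its log2 fold change was -0.20 ± 0.15 (SE, limma, adjusted p = 0.542) and 0.00 with the series as a term. Rpl38, which is needed for axial patterning in mice, had -0.16 ± 0.12, Rpl26, which binds p53 mRNA, -0.16 ± 0.15, and Rps27a, made as a fusion with ubiquitin, -0.15 ± 0.15 (log2, SE). Rps3, at the mRNA entry channel, had -0.15 ± 0.12, Rps26, at the exit channel, -0.02 ± 0.10, and Rps10 -0.13 ± 0.13 (log2, SE). The remaining small proteins Rps28, Rps29 and Rpl39 had -0.19 ± 0.12, -0.13 ± 0.13 and -0.26 ± 0.12, and Rps27 -0.11 ± 0.17 (log2, SE). Rpl23 had -0.05 ± 0.12 (log2, SE). The lowest adjusted p among these genes was that of Rpl39, 0.425 (limma).

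Without 8 h replicate 14, which leaves the 2 libraries of series 2 against the 1 h libraries of series 1, 9 of the 85 members (10.6%) reached the adjusted p of 0.05 and all were lower at 8 h, against 4.22% of all genes (limma, no fold threshold). Among them were Rps25, Rplp2, Rps21, Rpl37a, Rpl27a, Rps12, Rpl39 and Rpl41, and 0 of the 9 had an absolute log2 fold change above 1. In that fit the adjusted p was 0.0128 for Rps21 (log2 fold change -0.47) and 0.0345 for Rps25 (-0.34), a protein needed for translation from several viral internal entry sites. Rps25 showed the pattern of many members, with 1524 and 1504 TPM at 1 h and 1566 TPM in 8 h replicate 14, but 1251 TPM in replicate 13 and 1144 TPM in replicate 15. Time, series and the split in Xist and Y-linked genes cannot be told apart in this fit.

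The count table was tested with edgeR's quasi-likelihood test. It lists 32 of the 88 genes, 31 of them core genes. Of these, 0 were called, as for 0% of the 7590 genes tested, and 0 had an unadjusted p under 0.05 against 2.62% of all genes. DESeq2 and limma-voom likewise gave 0 of the 32 an unadjusted p under 0.05. The median log2 fold change was -0.07, against 0.01 over the 7470 genes tested in both counts and TPM. Of the 32 genes, 27 had a value below 0, and no share over all genes was set beside this count. Rpl12, a base protein of the stalk, was the only one (3.12%) with every 8 h column below both 1 h columns, against 7.05% of all genes. The 8 h count columns did not match the TPM tables of the same name. Compared with the ratio of counts to TPM in 1 h replicate 1, the column of 8 h replicate 13 was within 0.1 log2 units of the TPM table of replicate 14 in 30 of 32 members and of its own table in 21. The column of replicate 15 was that close to the table of replicate 13 in 30 and to its own in 23, and the column of replicate 14 reached at most 25, with the table of 1 h replicate 2. The column of 1 h replicate 2 was that close to its own table in all 32. The column totals were also set against the relative depth of the tables (coverage per FPKM), with the ratio of 1 h replicate 1 taken as 1. The ratio was 1.00 for 1 h replicate 2, but 0.80 for the column of 8 h replicate 14 and 1.29 for that of replicate 15 against their own tables. The column of replicate 14 gave 1.00 with the table of replicate 15, that of replicate 15 gave 1.04 with the table of replicate 13, and that of replicate 13 gave 1.01 with its own table and 1.00 with that of replicate 14. The columns were used by their names, so results that depend on which 8 h column is which rest on the TPM tables.

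The size of the difference varied with the length of the protein. The pattern was noticed in these data and is described with no test. Coding lengths ran from 138 to 1257 bp with a median of 468 bp. In the 20 shortest genes (138 to 375 bp) the median log2 fold change was -0.18 and all 20 were below 0. In 7 of these 20 every 8 h library was below both 1 h libraries, against 9.43% of all genes tested. In the next 20 (384 to 468 bp) the median was -0.13, in the following 18 (471 to 633 bp) -0.08, and in the 19 longest (636 to 1257 bp) -0.03. The corresponding counts without overlap were 5, 2 and 1. Spearman's rho between fold change and coding length was 0.55 over the 77 genes, which share the same 5 libraries, and -0.05 over 11886 other protein-coding genes. Other protein-coding genes of 138 to 375 bp had a median of 0.06 (455 genes) and those of 636 to 1257 bp of 0.12 (3422 genes). In 1 h replicate 2 the shortest 20 genes lay 0.18 above their mean on the log2 scale and the longest 19 at -0.00, whereas in 1 h replicate 1 both lay near 0.07. Without 1 h replicate 2 rho was 0.29, with the series as a term 0.28, and without 1 h replicate 1, or without any one of the 8 h libraries, between 0.43 and 0.62. Fold change had almost no relation to the level itself (rho 0.06).

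**Figure D4:**
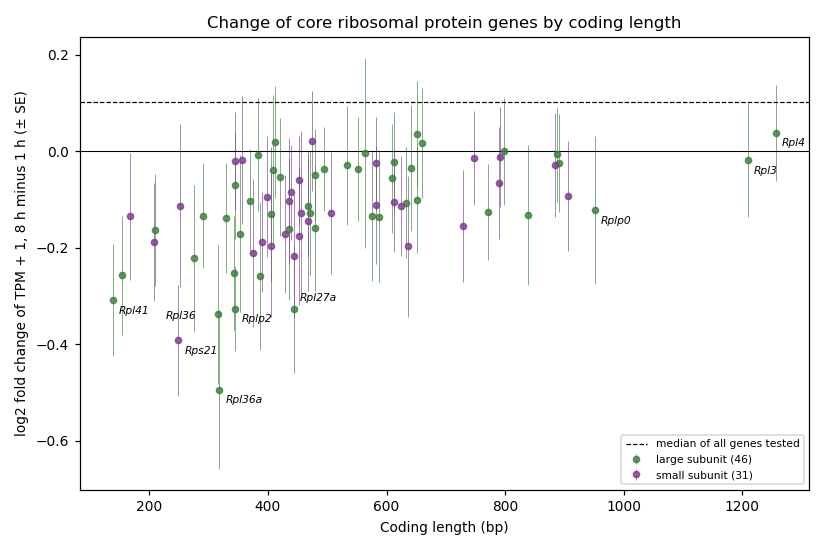
Log2 fold change of TPM + 1 between 8 h and 1 h (± SE) against coding length for the 77 core genes, coloured by subunit, with the median of all genes tested as a dashed line at 0.10. Short genes such as Rpl41, Rps21 and Rpl36a lie among the lowest, and Rpl3 and Rpl4, the longest, lie near 0.

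Other features were less related to the difference. The 27 core genes with a TOP-like start within 5 bases had a median log2 fold change of -0.11 and the 30 with a listed start but no such tract -0.09. Many ribosomal protein genes carry small nucleolar RNA genes in their introns, which guide modification of ribosomal RNA. Of the 77 core genes, 30 (39.0%) held at least 1 in the annotation, 58 in all, against 1.80% of 11966 protein-coding genes tested. The 30 host genes had a median log2 fold change of -0.05 and the 47 others of -0.13. The core genes are spread over 19 chromosomes, with the most on chromosome 7 (14 genes) and 4 on the X chromosome (Rpl10, Rpl36a, Rpl39 and Rps4x).

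Ribosomal proteins whose symbols fall outside the pattern also had log2 fold changes below 0. Fau, a fusion that releases a small subunit protein, averaged 772 ± 70.3 TPM at 1 h (SD, n = 2) against 665 ± 49.0 TPM at 8 h (SD, n = 3), and Rack1 (listed as Gnb2l1), a scaffold on the small subunit, 1065 ± 173 and 981 ± 50.4 TPM. Rpl36al was at 408 ± 12.9 and 403 ± 42.0 TPM. Their log2 fold changes lay between -0.22 and -0.02, with adjusted p of at least 0.451 (limma).

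Genes that build the ribosome mostly had higher values at 8 h, though none passed the adjusted test. For 40 ribosome biogenesis factors, the median log2 fold change was 0.26 and 38 had a value above 0. Every 8 h library was above both 1 h libraries for 29 of them (72.5%, against 23.7% of all genes), and 15 (37.5%, against 9.52%) had an unadjusted p under 0.05, all higher at 8 h, although the lowest adjusted p was that of Tsr1. Tsr1, needed for small subunit maturation, was at 39.7 and 42.6 TPM at 1 h and at 62.8, 55.4 and 76.5 TPM at 8 h, so that the log2 fold change was 0.63 ± 0.15 (SE), with an adjusted p from limma of 0.298. Polr1a, the largest subunit of RNA polymerase I, was at 29.2 and 29.5 TPM at 1 h and at 37.6, 37.8 and 41.1 TPM at 8 h (log2 fold change 0.39 ± 0.10, SE, adjusted p = 0.309). Nop16, a nucleolar protein, was at 31.7 and 32.3 against 41.1, 41.7 and 41.9 TPM. In these 3 genes replicate 14 lay above both 1 h libraries, though in Tsr1 it was the lowest 8 h value. The log2 fold change of Tsr1 was 0.42 with the series as a term. In that fit 35 of the 40 factors had a value above 0 and 5 below, among them Ubtf (-0.20). When the series was added to the fit, 7 of the 40 were higher at an unadjusted p under 0.05, against 4.98% of all genes. The median of the list in that fit was 0.15 against 0.01 over all genes, and after median-ratio scaling it was 0.15. In the count table, 29 of the factors had a median of 0.09, against 0.01 over 7470 genes. Of the 29, 0 had an unadjusted p under 0.05 (edgeR), against 2.62% of all genes.

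Mitochondrial ribosomal proteins form the separate ribosome of that organelle. The list, taken by symbol, held 83 rows, and 5 of them are named as pseudogenes. Of the 83, 81 were tested, with a median log2 fold change of 0.08, which was -0.03 after median-ratio scaling, and 19 (23.5%, against 23.7% of all genes) with every 8 h library above both 1 h libraries. Without the pseudogene rows, 77 were tested, the median was 0.10, and -0.02 after median-ratio scaling. Of the 81, 6 had an unadjusted p under 0.05 (limma), all higher at 8 h (7.41%, against 9.52% of all genes). The same 6 were 7.79% of the 77. Among them was Mrpl40 at 51.2 and 48.0 TPM at 1 h and 70.3, 60.2 and 70.5 TPM at 8 h. The 83 rows made up 0.528% and 0.526% of TPM at 1 h and 0.587%, 0.534% and 0.568% at 8 h. The 18 translation factors and related proteins whose mRNAs are known to carry TOP tracts had a median log2 fold change of 0.05, or -0.07 after median-ratio scaling, with 0 at an unadjusted p under 0.05 (limma). Eef1a1, the elongation factor that delivers aminoacyl-tRNA, averaged 9203 ± 541 TPM in the 1 h libraries (SD, n = 2) against 9504 ± 292 TPM in the 8 h libraries (SD, n = 3), and Eef2 1642 ± 75.8 against 1647 ± 75.3 TPM. Other initiation and release factors (17 genes) had a median of 0.07, or -0.04 after median-ratio scaling, and 2 of them, Eif2s1 and Abce1, were higher at 8 h at an unadjusted p under 0.05 (11.8%, against 9.52% of all genes), with adjusted p of 0.397 and 0.402 (limma). When the series was added to the fit, 0 of the 17 were.

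Among 18 regulators of ribosomal protein synthesis the median log2 fold change was -0.06, or 0.06 with the series as a term, 10 had a value below 0 and 8 above. An unadjusted p under 0.05 was found for Myc, Larp1 and Larp4, all higher at 8 h (3 of 18, 16.7%, against 9.52% of all genes), and for 0 of the 18 in that direction when the series was added. Larp1, the TOP mRNA-binding protein, was at 55.4 and 55.7 TPM at 1 h and at 66.3, 62.4 and 67.2 TPM at 8 h (log2 fold change 0.23 ± 0.09, SE, limma, adjusted p = 0.402). Myc, a driver of ribosome biogenesis, was at 66.2 and 76.1 TPM at 1 h and at 84.4, 85.1 and 86.2 TPM at 8 h (0.26 ± 0.10, SE, adjusted p = 0.396). Mtor was at 42.0 and 39.1 TPM at 1 h and at 34.5, 40.2 and 34.3 TPM at 8 h, with the lower values in series 2.

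The median deviation of the core genes from their mean over the 5 libraries was 0.06 and 0.07 at 1 h and -0.07, 0.08 and -0.14 at 8 h on the log2 scale, so replicate 14 sat with the 1 h libraries. For ribosome biogenesis factors it was -0.10 and -0.20 at 1 h and 0.12, 0.04 and 0.21 at 8 h, and for all genes tested -0.06 and -0.06 against 0.08, -0.03 and 0.09. For the regulators it was 0.04 and 0.01 at 1 h and 0.01, 0.06 and -0.05 at 8 h. Spread between libraries was small for the core genes, with a median residual SD of 0.12 on the log2 scale. Over the 1753 genes that averaged 100 TPM or more it was 0.13, and over all genes tested 0.17.

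**Figure D5:**
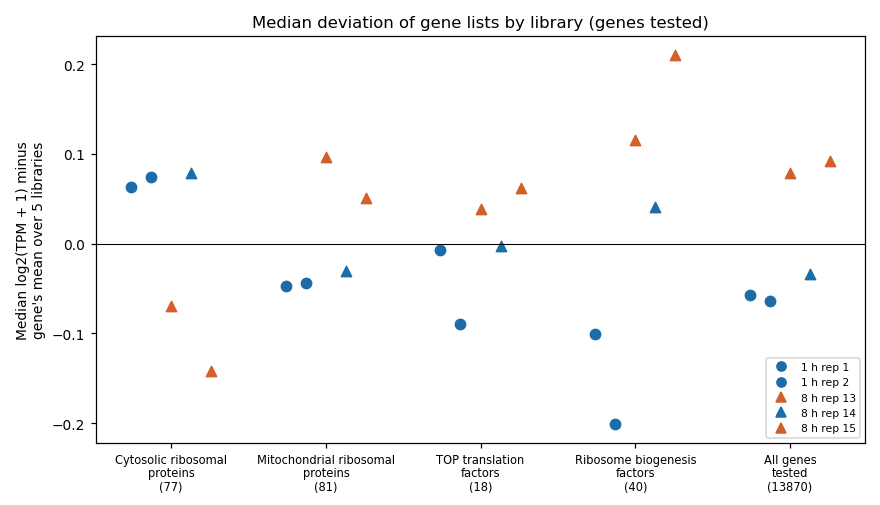
Median deviation of log2(TPM + 1) from each gene's mean over the 5 libraries, by gene list (number of genes tested in brackets) and library (circles 1 h, triangles 8 h, blue series 1, orange series 2). Cytosolic ribosomal protein genes are lowest in the 2 orange libraries (-0.07 and -0.14), where the other 4 groups of genes plotted are highest.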

How the data were processed

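Polyadenylated RNA of subventricular zone cells, labelled as neural stem and precursor cells, was sequenced as stranded paired-end libraries, and per the labels reads were converted with bcl2fastq 2.19.1.403. By the study's methods they were aligned to GRCm38 with STAR and counted with featureCounts. The deposited per-library tables hold coverage, FPKM and TPM per gene, in the layout of a StringTie abundance table, and the sources used here name neither the tool nor its version. The authors also deposited a table of raw counts, which lists 7599 genes and totals 13988166 to 18572154 counts per sample column. Peroxide-treated libraries were not analysed here.

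TPM was summed per gene identifier, and FPKM served as an alternative for levels. Genes that averaged 1 TPM or more were fitted with limma 3.58.1 (trend) on log2(TPM + 1) in R 4.3.3, so folds of low genes are understated. Counts were fitted with edgeR 4.0.16 (TMM, quasi-likelihood). All tests were two-sided, and p-values were adjusted by Benjamini-Hochberg over all genes of a table. A call needed a log2 fold change beyond 1 in either direction and an adjusted p no higher than 0.05. DESeq2 1.42.0, limma-voom, other scalings, leaving out each library and the identifier series as a term were alternatives. Simulated data with the group sizes of the TPM comparison, over 13870 genes, were judged by an adjusted p of at most 0.05 alone. By that, limma found 47 of 100 genes changed by 1 log2 unit, 86 of 100 changed by 2, and 4 of 13670 unchanged genes. No fold threshold was applied there, so these are not the rates of the call rule. Total counts limit the precision of low genes. The TPM tables hold no read counts, but coverage per FPKM, a relative depth, ran from 5.57 to 7.18.

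The members and gene lists were chosen with earlier results of these data known. Genes were named by rule: the 8 highest and 5 lowest, all paralogs, the 5 largest differences each way, and a set chosen by role. Rpl37a, Rpl12 and Mtor, and the examples from other lists, were named after their values were seen. Genes of like pattern were not sought, since 5 libraries are too few for a correlation. Near-identical pseudogenes can take reads from their parent genes, which makes levels of both uncertain. Results for some genes are not reported here.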

Additional observations from a re-analysis of the deposited data

How the results depend on the processing

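No paired analysis was possible because the 1 h and 8 h groups share no replicate numbers. For the ribosomal protein genes, 0 were called under every TPM alternative that kept the call rule and in the count table under DESeq2, limma-voom, another scaling, no filter and each column left out. An unadjusted p under 0.05 gave 5, and leaving out 8 h replicate 14 with no fold threshold, chosen after seeing the data, gave 9. Over all genes, 6 were called, against 1712 at an unadjusted p under 0.05, 0 without the filter on low values and 19 with the identifier series as a term. Leaving out 1 library gave 0 to 568, the highest without 8 h replicate 14 and 0 or 1 without any other. The members' median log2 fold change in TPM was -0.11, which became -0.22 after median-ratio scaling, 0.0246 with the series as a term and the same 0.0246 within series 1, both of which rest on 8 h replicate 14 alone. Leaving out 1 library gave -0.15 to -0.05, the latter without 8 h replicate 15. In counts the median of -0.07 was 0.01 with the series as a term or without the column of 8 h replicate 15, both by column names that did not match the TPM tables. The members' share of TPM differed by -0.744 percentage points, by 0.0206 within series 1, and by -1.13 to -0.437 with 1 library left out, the extremes without 8 h replicates 14 and 15. The SD of log2 levels over the 77 core genes was 0.75, and 0.77 in 8 h replicate 14 alone. Over the 31 in the count table it was 1.02 per kilobase of all exons and 0.73 per kilobase of the coding transcript, where TPM gave 0.95. The causes were not tested. Of 528 recomputed values of 48 named genes, 441 moved by less than 1 SD and 78 changed sign, none of a called gene.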
